A study of Mus musculus with 8 samples.

Results

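The epidermal differentiation complex (EDC) of mouse chromosome 3 carries the genes of most cornified envelope precursors, and 45 of its genes were followed here in the epidermis of control mice and of mice labelled RoraEKO, in which *Rora* was targeted in keratinocytes. They were the protein-coding genes named *Lce* with a number or *Sprr* in release 39 of the mouse GENCODE annotation, together with *Ivl*, *Loricrin*, *Crct1*, *Lelp1*, *Kprp*, *Smcp* and *Prr9*, out of 55416 genes in the deposited count table. The list held 14 *Lce1* genes, 6 *Lce3* genes, *Lce6a*, 2 *Sprr1* genes, 12 *Sprr2* genes, *Sprr3*, *Sprr4* and *Sprr5*. RNA-seq had been carried out on dorsal epidermis of mice at postnatal day 4, peeled from the dermis after a short heat treatment. There were 4 libraries of RoraEKO epidermis, from a Rora flox/flox strain crossed with a K14-Cre strain, and 4 control libraries whose genotype label is WT. The study calls its controls littermates and does not give their Cre or flox alleles. Cre is driven by the K14 promoter, which is active in basal keratinocytes. No source says that animals were pooled, and the p-values measure the spread between these 8 libraries.

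The cornified envelope is a layer of crosslinked protein that replaces the plasma membrane when a keratinocyte of the granular layer becomes a corneocyte. Involucrin is laid down early beneath the membrane, loricrin makes up most of the finished envelope, and the small proline-rich (SPRR) proteins act as cross-bridges between other precursors. The late cornified envelope (LCE) proteins are added late in the process, and the transglutaminases join all of them. Genes of the *Sprr* and *Lce3* families are also known to be induced when skin is injured or inflamed. RORα, the product of *Rora*, is a nuclear receptor that binds the letters AGGTCA preceded by an A/T-rich stretch.

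The promoters of 8 members are printed to show how the families whose values follow differ just upstream of their starts. Each sequence runs 5′ to 3′ on the gene's strand over 300 bases, from 250 bases before to 50 bases after the start, and was taken from RefSeq for GRCm38.p6. Capitals mark every match, on either strand, to AGGTCA, to TGANTCA (the AP-1 element), to TGACNNNGC (the core of the antioxidant response element) or to TATAAA (the TATA box). The A/T-rich stretch that precedes AGGTCA where RORα binds was not part of the search. A match is a description of the letters and not a site of binding. The first 3 lie at chr3:93019012-93019311 for *Lce1m*, chr3:92687161-92687460 for *Lce1d* and chr3:92709025-92709324 for *Lce1e*, all on the minus strand.
Lce1m: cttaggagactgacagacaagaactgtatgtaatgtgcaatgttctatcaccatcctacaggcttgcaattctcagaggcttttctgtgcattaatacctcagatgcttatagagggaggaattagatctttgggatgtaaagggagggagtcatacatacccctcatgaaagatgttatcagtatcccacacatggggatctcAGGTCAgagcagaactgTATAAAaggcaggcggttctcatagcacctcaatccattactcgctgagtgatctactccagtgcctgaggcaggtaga
Lce1d: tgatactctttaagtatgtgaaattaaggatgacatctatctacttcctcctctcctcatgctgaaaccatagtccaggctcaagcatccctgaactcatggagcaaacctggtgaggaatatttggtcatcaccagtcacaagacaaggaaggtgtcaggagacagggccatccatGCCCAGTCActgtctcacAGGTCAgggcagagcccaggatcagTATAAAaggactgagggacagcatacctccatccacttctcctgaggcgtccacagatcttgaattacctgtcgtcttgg
Lce1e: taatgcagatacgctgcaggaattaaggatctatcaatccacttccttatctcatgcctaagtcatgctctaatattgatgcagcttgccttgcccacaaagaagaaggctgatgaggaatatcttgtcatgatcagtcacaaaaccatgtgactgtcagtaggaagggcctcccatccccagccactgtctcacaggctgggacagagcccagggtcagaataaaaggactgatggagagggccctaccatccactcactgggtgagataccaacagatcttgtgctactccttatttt

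Among the *Lce1* genes, *Lce1m* was the member whose level was lower in the RoraEKO libraries, *Lce1d* is a higher member with the same pair of matches and *Lce1e* is a higher member without any. In *Lce1m* the AGGTCA match began at -46 and TATAAA at -29 relative to the start, and in *Lce1d* they began at -55 and -30. An AGGTCA match was present in 4 of the 13 *Lce1* promoters that were matched (30.8%), against 16.3% of 32851 promoters of the table. At the place of TATAAA, 9 of the 13 *Lce1* promoters held AATAAAA on the gene's strand between 40 and 20 bases before the start, against 0.402% of all promoters. These letters, like GGATAAAA below, were searched after the sequences had been seen. *Lce1m* and *Lce1d* were the 2 *Lce1* promoters with TATAAA in that window, which 1.99% of all promoters held.

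The next 3 promoters belong to the *Sprr2* family on the plus strand. They lie at chr3:92338890-92339189 for *Sprr2d*, chr3:92385435-92385734 for *Sprr2h* and chr3:92250397-92250696 for *Sprr2a2*, and they show the letters shared by most of the family and a window of the *Sprr2a* genes, whose values separated the groups.
Sprr2d: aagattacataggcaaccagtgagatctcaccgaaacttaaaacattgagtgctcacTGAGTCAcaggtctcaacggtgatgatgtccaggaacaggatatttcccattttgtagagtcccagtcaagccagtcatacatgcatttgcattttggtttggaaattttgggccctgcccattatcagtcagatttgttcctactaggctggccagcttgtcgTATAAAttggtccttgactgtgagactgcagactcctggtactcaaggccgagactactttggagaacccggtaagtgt
Sprr2h: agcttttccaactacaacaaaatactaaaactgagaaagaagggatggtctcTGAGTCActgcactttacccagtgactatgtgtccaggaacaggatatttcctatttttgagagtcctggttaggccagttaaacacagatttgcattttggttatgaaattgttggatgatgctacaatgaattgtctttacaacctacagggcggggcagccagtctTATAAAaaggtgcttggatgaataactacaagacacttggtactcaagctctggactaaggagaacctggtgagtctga
Sprr2a2: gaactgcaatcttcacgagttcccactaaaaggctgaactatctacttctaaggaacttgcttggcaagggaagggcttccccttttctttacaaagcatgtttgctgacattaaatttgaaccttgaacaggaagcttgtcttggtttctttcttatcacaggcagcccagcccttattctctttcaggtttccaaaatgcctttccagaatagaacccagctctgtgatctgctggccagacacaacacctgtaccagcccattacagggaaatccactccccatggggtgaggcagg

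In *Sprr2d* the AP-1 match began at -193 and TATAAA at -29, and in *Sprr2h* they began at -198 and -29. *Sprr2b*, *Sprr2e*, *Sprr2f*, *Sprr2i* and *Sprr2k* had the same layout, so that 7 of 10 matched *Sprr2* promoters held the AP-1 letters (70%), against 7.81% of all promoters. None of the 4 motifs was found in the RefSeq promoters of *Sprr2a1*, *Sprr2a2* and *Sprr2a3*, the 3 genes of the family with the smallest p in the comparison of genotypes. Their windows were not placed like the others, however. A run of 18 letters that *Sprr2b* held from -80 began at base 6 counted from the start in *Sprr2a1* and *Sprr2a2*, and a run of 17 began at base 34 in *Sprr2a3*, so that these windows ended short of the letters that lie around TATAAA in *Sprr2b*. The absence of TATAAA from them therefore does not show a difference between the promoters. No AP-1 match was found in the 13 *Lce1* or the 6 *Lce3* promoters. The letters TGACNNNGC were found in 3 of the 6 *Lce3* promoters, those of *Lce3c*, *Lce3d* and *Lce3e*, against 12.4% of all promoters, and 5 of the 6 held GGATAAAA between 40 and 20 bases before the start, against 0.0822% of all promoters.

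The last pair is given for the early precursors, *Ivl* at chr3:92573686-92573985 and *Loricrin* at chr3:92083093-92083392, both on the minus strand.
Ivl: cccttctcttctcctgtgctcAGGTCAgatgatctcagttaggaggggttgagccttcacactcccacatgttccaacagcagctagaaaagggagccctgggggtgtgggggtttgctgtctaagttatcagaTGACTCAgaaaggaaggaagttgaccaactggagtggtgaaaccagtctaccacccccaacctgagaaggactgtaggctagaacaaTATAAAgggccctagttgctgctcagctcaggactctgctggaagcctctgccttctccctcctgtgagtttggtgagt
Loricrin: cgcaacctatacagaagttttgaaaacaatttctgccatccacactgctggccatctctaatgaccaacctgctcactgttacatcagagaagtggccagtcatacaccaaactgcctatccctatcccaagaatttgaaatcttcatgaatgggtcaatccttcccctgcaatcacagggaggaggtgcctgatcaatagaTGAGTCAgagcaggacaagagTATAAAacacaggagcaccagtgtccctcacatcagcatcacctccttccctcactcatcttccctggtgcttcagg

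The AP-1 match began at -116 in *Ivl* and at -48 in *Loricrin*, and TATAAA began at -29 and -27. *Ivl* also held an AGGTCA match, at -229. Over all members, 39 of 45 promoters were matched by symbol, and *Lce1f*, *Kprp*, *Crct1*, *Sprr2g*, *Sprr5* and *Sprr2j-ps* were not. AGGTCA was found in 7 of the 39 (17.9%), a share close to the 16.3% of all promoters, TGANTCA in 12 (30.8%), TGACNNNGC in 7 (17.9%) and TATAAA in 17 (43.6%, against 13.6% of all promoters).

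The targeted gene was examined first in the counts. *Rora* was at 157, 193, 186 and 308 counts per 1000000 (CPM, scaled with TMM factors) in the control libraries A1, B1, C1 and C6 and at 154, 188, 237 and 206 CPM in RoraEKO replicates A3, B4, C2 and C3. The groups overlapped (log2 fold change -0.11 with adjusted p = 0.877, edgeR quasi-likelihood test with Benjamini-Hochberg adjustment), gene-level counts do not resolve the floxed exons, and genotypes were taken from the labels alone. Of the controls, C1 had 415 CPM and C6 527 CPM of *Xist*, while no other library exceeded 0.0546 CPM and these 6 expressed *Ddx3y* at 15.7 to 24.1 CPM. Sex was therefore not balanced between the groups. Library totals ran from 17286903 to 26705533 counts, and 3 counts, taken as the floor of detection for counting error alone, corresponded to between 0.112 and 0.196 CPM. Libraries are listed throughout as A1, B1, C1 and C6 for control and A3, B4, C2 and C3 for RoraEKO, and the meaning of the title letters is not given in the sources used here. Markers of spinous keratinocytes (*Krt1*, *Krt10* and *Dsg1a*) summed to 37384 to 64265 CPM in the control and 79315 to 99549.9 CPM in the RoraEKO libraries, and those of granular keratinocytes (*Flg*, *Casp14*, *Tgm3* and *Klk7*) to 5874 to 8087 and 6188 to 9297 CPM. Nearly all of the spinous sum came from *Krt1* and *Krt10*. *Dsg1a* overlapped between the groups, with means of 931 CPM in the control and 941 CPM in the RoraEKO libraries. In epidermis measured in bulk, fewer cells of a type and less RNA per cell cannot be told apart. The part of these markers in the results below was not tested.

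Most *Lce* genes and the *Sprr2a* genes were higher in the RoraEKO epidermis, and neither early precursor passed the test. Of the 45 members, 36 passed the filter on low counts, and 21 of these were called higher in the RoraEKO libraries (adjusted p under 0.05 and a fold change above 1.5, edgeR quasi-likelihood test with Benjamini-Hochberg adjustment over all 13147 genes tested), whereas 2.30% of all tested genes were. No member was called lower by this test, against 3.22% of all tested genes, and 1 member, *Lce1m*, had an unadjusted p under 0.05 in that direction. DESeq2 called 23 members higher and *Lce1m* lower, against 3.64% and 4.21% of all tested genes. Its higher calls added *Sprr2b*, *Sprr2g*, *Lce1l* and *Lce3d* to those of edgeR and lacked *Sprr2d* and *Sprr1b*. The genes called higher by edgeR were 12 *Lce1* genes, *Lce6a*, 3 *Lce3* genes, 4 *Sprr2* genes and *Sprr1b*. The median log2 fold change was 1.38 over the 36 members and -0.04 over all genes tested. It was 1.26 over the 32 members tested when 10 counts were required in every library.

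**Figure D1:**
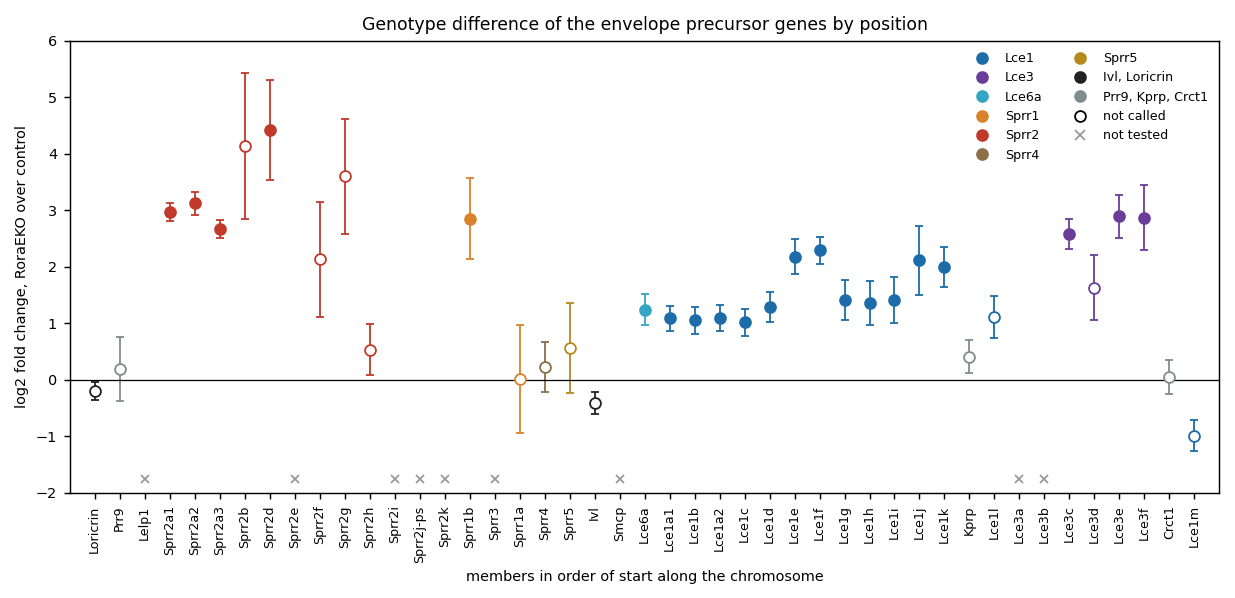
Log2 fold change of RoraEKO over control (vertical axis) for the members in their order along chromosome 3 (horizontal axis), with the standard error of the difference of mean log2 CPM between the 4 libraries of each group. Filled points passed the cutoffs, open points did not, and crosses at the bottom mark the 9 members that were not tested. In this fit of all 8 libraries the unbroken row of filled points runs from *Lce6a* to *Lce1k*, and *Lce1m* at the far right is at -0.99.

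The order along the chromosome set the members apart into blocks. In GRCm39 they span chromosome 3 from the start of *Loricrin* at 91987578 to the end of *Lce1m* at 92926367, a distance of 939 kb. The longest run of neighbouring tested members called higher held 13 genes, from *Lce6a* to *Lce1k*, and covered 188 kb between 92527388 and 92715198. Gene positions given below are in the same build and chromosome. On one side of that run lay *Smcp*, which was not tested, and *Ivl*, which was not called, and on the other lay *Kprp* and *Lce1l*, which were not called. *Lce1l* had a log2 fold change of 1.11, above the 1.02 of *Lce1c* inside the run, so this edge rests on the cutoff. The run also depended on single libraries. Without control replicate B1, only *Lce1e*, *Lce1f* and *Lce1k* of its genes were still called. A second run held *Sprr2a1*, *Sprr2a2* and *Sprr2a3* over 75.6 kb, genes that share much of their sequence, and another held *Lce3e* and *Lce3f* over 26.4 kb. *Lce1m* lies apart from the other *Lce1* genes, 2.12 kb beyond *Crct1* at the far end of the *Lce3* genes, and it had the lowest log2 fold change of the 36.

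Reads from near-identical genes can be divided between them during counting, so the members were also summed by subgroup. The *Lce1* genes together held 0.300, 0.311, 0.275 and 0.304% of the counts in the control libraries and 0.320, 0.688, 0.698 and 0.498% in the RoraEKO libraries. The groups did not overlap, and RoraEKO replicate A3 was close to the controls. The mean share was 0.297 ± 0.0158% and 0.551 ± 0.179% (SD, n = 4 each), a ratio of 1.85.

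The *Lce3* genes held a far smaller share of the counts but differed by more. They took 0.00169, 0.00205, 0.00233 and 0.00157% of the control counts and 0.00595, 0.0165, 0.0113 and 0.00983% of the RoraEKO counts, a ratio of means of 5.71. The *Sprr2* genes took 0.0299, 0.0367, 0.0354 and 0.0317% in the controls and 0.153, 0.270, 0.246 and 0.271% in the RoraEKO libraries, a ratio of 7.03. In both subgroups every RoraEKO library was above every control library.

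The *Sprr1* share did not separate the groups. It was 0.540, 0.262, 0.0770 and 0.0450% in the controls and 0.356, 0.372, 0.149 and 0.107% in the RoraEKO libraries, and it was high in the libraries of letters A and B and low in those of letter C in both groups. *Ivl* and *Loricrin* together held 0.529, 0.603, 0.476 and 0.574% of the control counts and 0.347, 0.448, 0.511 and 0.461% of the RoraEKO counts, with means of 0.545 ± 0.0552% and 0.442 ± 0.0687% (SD, n = 4 each). These groups overlapped through control replicate C1 and RoraEKO replicate C2. Counted within the members alone, the 2 early precursors made up 38.4 ± 9.76% of the control counts and 23.2 ± 4.04% of the RoraEKO counts (SD, n = 4 each), and the *Sprr2* genes 2.38 ± 0.715% and 12.3 ± 2.94%. The shares of the early precursors overlapped, at 26% in control replicate A1 and 27.7% in RoraEKO replicate C3, while those of the *Sprr2* genes did not. Shares of one sum are tied, so that a higher *Sprr2* or *Lce* share lowers that of the early precursors. All members together took 1.13 to 2.04% of the counts in the controls and 1.64 to 2.41% in the RoraEKO libraries.

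**Figure D2:**
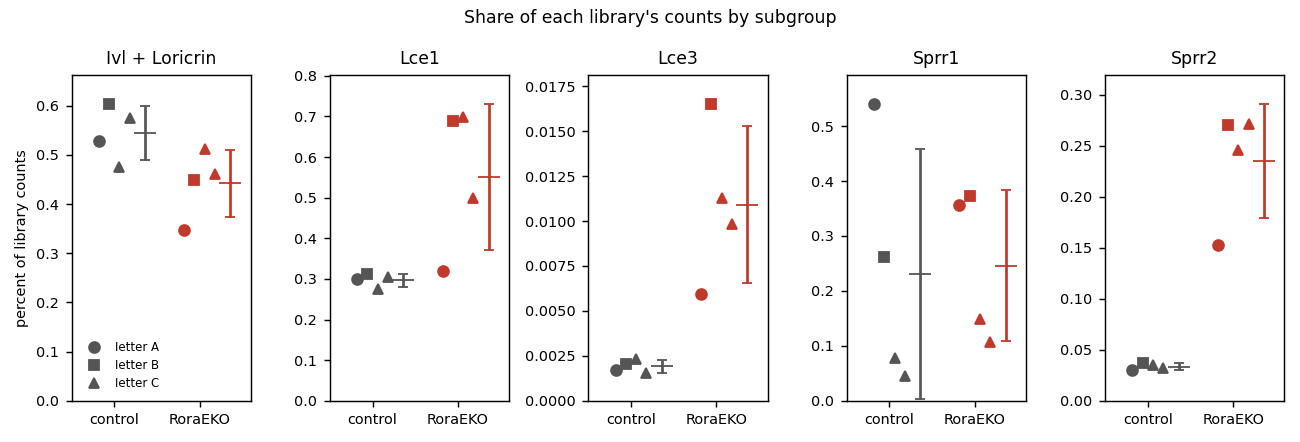
Percent of each library's counts (vertical axes, each from 0) held by *Ivl* with *Loricrin*, by *Lce1*, *Lce3*, *Sprr1* and *Sprr2* in control (grey) and RoraEKO (red) libraries. Symbols mark the letter of the sample title and the bar beside each group is the mean ± SD of 4 libraries. The groups separate for *Lce1*, *Lce3* and *Sprr2*, whose means differ 1.85, 5.71 and 7.03 times.

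*Loricrin* (ENSMUSG00000043165, 91987578 to 91990449, minus strand), the most abundant member per kilobase of transcript in the controls, was at 4109, 4612, 3702 and 4490.1 CPM in the control libraries and at 2915, 3406, 4796 and 3561 CPM in the RoraEKO libraries. RoraEKO replicate C2 had the highest value of all 8 libraries, so the groups overlapped (log2 fold change -0.20 ± 0.166 (SE), adjusted p = 0.709, edgeR quasi-likelihood test). *Ivl* (ENSMUSG00000049128, 92478209 to 92481042, minus strand), which encodes involucrin, was at 1228, 1217, 783 and 1252 CPM in the controls and at 997, 745, 865 and 777 CPM in the RoraEKO libraries. Control replicate C1 was the control inside the RoraEKO range, and the difference did not pass the test (log2 fold change -0.41 ± 0.189 (SE), adjusted p = 0.318, same test). In level per kilobase of annotated exon, *Loricrin* was at 2153 CPM per kb in the controls and *Ivl* at 583 CPM per kb.

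The 14 *Lce1* genes were all tested, 13 had a log2 fold change above 0 and 12 were called higher. *Lce1f* (ENSMUSG00000042124, 92625350 to 92627657, minus strand) had the highest log2 fold change of the family. It was at 172, 139, 135 and 155 CPM in the control libraries and at 490.1, 846, 975 and 622 CPM in the RoraEKO libraries. The lowest RoraEKO library was far above the highest control library (log2 fold change 2.29 ± 0.237 (SE), adjusted p = 0.000558, edgeR quasi-likelihood test). Its neighbour *Lce1e* was at 85.6, 64.5, 53.5 and 76.5 CPM and at 183, 387, 423 and 279.5 CPM, again without overlap (log2 fold change 2.18 ± 0.311 (SE), adjusted p = 0.00173, same test). *Lce1a1*, the member with the highest mean CPM of the family over all libraries, was at 438, 431, 393 and 439 CPM in the controls and at 626, 953, 1273 and 769 CPM in the RoraEKO libraries. The groups did not overlap (log2 fold change 1.09 ± 0.222 (SE), adjusted p = 0.0173, same test). The other 9 called genes, *Lce1b*, *Lce1a2*, *Lce1c*, *Lce1d* and *Lce1g* to *Lce1k*, had log2 fold changes from 1.02 to 2.11, and *Lce1l* was at 1.11 with an adjusted p of 0.065 by the same test. The highest of the 9, *Lce1j*, overlapped between the groups and was not called with the title letter as a block. In 11 of the 14 genes every RoraEKO library was above every control library, which held for 5.43% of all tested genes.

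*Lce1m* (ENSMUSG00000027912, 92925117 to 92926367, minus strand) was at 727, 982, 743 and 929 CPM in the control libraries and at 300.1, 325, 666 and 408 CPM in the RoraEKO libraries. Every RoraEKO library lay below every control library, as in 7.53% of all tested genes, and RoraEKO replicate C2 came closest to the controls. The difference missed the cutoff by a small margin (log2 fold change -0.99 ± 0.281 (SE), adjusted p = 0.0578, edgeR quasi-likelihood test). It passed with DESeq2 (adjusted p = 0.00544), with library size alone as scaling (adjusted p = 0.0329, edgeR), with the title letter as a block (adjusted p = 0.0258, edgeR) and without RoraEKO replicate C2 (adjusted p = 0.0142, edgeR). It did not pass in the other 13 of 17 alternatives, where the adjusted p with edgeR ran from 0.051 to 0.197 and was highest without control replicates C1 and C6.

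The make-up of the *Lce1* counts was set by *Lce1m* more in the controls than in the RoraEKO libraries. *Lce1m* supplied 24.0, 32.6, 28.7 and 30.5% of the *Lce1* counts in the controls and 8.32, 5.11, 8.62 and 8.69% in the RoraEKO libraries, and *Lce1f* supplied 4.62 to 5.68% and 12.6 to 13.6%. Both shares separated the groups, and the RoraEKO libraries differed little among themselves in the *Lce1f* share although their *Lce1* totals differed. Without *Lce1m*, the *Lce1* genes took 0.211 ± 0.0131% of the control counts and 0.510 ± 0.170% of the RoraEKO counts (SD, n = 4 each), a ratio of 2.42. *Lce1m* shares none of its 50-base words with a transcript of another gene, whereas the other *Lce1* genes share 7.02 to 27% of theirs, *Lce1f* the least and *Lce1i* the most.

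**Figure D3:**
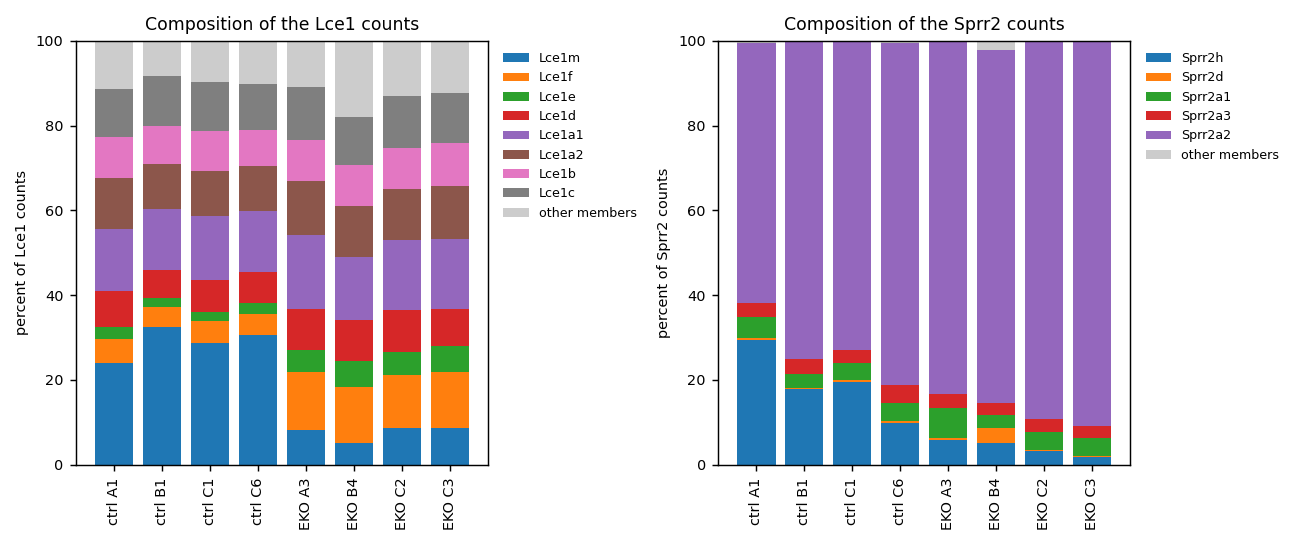
Percent of the summed *Lce1* counts (left) and *Sprr2* counts (right) that each named gene supplied in each library, from 0 to 100%. *Lce1m* supplies 24.0 to 32.6% of *Lce1* in the controls and 5.11 to 8.69% in the RoraEKO libraries, and *Sprr2h* 9.76 to 29.5% and 1.79 to 5.83% of *Sprr2*.

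*Lce6a*, a single gene between *Smcp* and the *Lce1* genes, was at 84.4, 85.7, 73.6 and 119 CPM in the control libraries and at 136, 235, 290.4 and 195 CPM in the RoraEKO libraries. The groups did not overlap, and RoraEKO replicate A3 and control replicate C6 lay next to each other (log2 fold change 1.24 ± 0.275 (SE), adjusted p = 0.0149, edgeR quasi-likelihood test).

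Of the 6 *Lce3* genes, 4 were tested and 3 were called higher. *Lce3c* (ENSMUSG00000045475, 92851793 to 92853040, plus strand), which supplied 70.8 to 85.6% of the *Lce3* counts of each library, was at 12.1, 16.2, 17.5 and 12.7 CPM in the controls and at 57.4, 111, 106 and 75.9 CPM in the RoraEKO libraries. The groups were far apart (log2 fold change 2.58 ± 0.259 (SE), adjusted p = 0.000339, edgeR quasi-likelihood test). *Lce3e* was at 1.71, 1.2, 1.28 and 1.61 CPM and at 4.89, 15.9, 12.8 and 9.68 CPM (log2 fold change 2.89 ± 0.384 (SE), adjusted p = 0.00156, same test). *Lce3f* held 17, 6, 7 and 13 counts in the controls and 19, 190, 49 and 39 counts in the RoraEKO libraries. Its log2 fold change was 2.87 with an adjusted p of 0.0216 by the same test, and 2.02 without RoraEKO replicate B4. It passed the filter on low counts through the RoraEKO libraries, where it is high, and was not tested when 10 counts were required in every library.

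*Lce3d* was at 2.59, 1.91, 2.60 and 0.825 CPM in the controls and at 3.13, 12.5, 3.85 and 4.89 CPM in the RoraEKO libraries. The groups did not overlap, RoraEKO replicate B4 stood above the others and the test was not passed (log2 fold change 1.63 ± 0.569 (SE), adjusted p = 0.0998, edgeR quasi-likelihood test). *Lce3b* held 0, 2, 2 and 0 counts in the controls and 1, 98, 5 and 2 counts in the RoraEKO libraries, and was not tested. Nearly all of its counts came from RoraEKO replicate B4. *Lce3a*, also untested, held at most 2 counts in a control library and 25 counts in RoraEKO replicate B4. The tested *Lce3* genes share 32.7 to 49.3% of their 50-base words with other genes, so that single values in this family are less certain than their sum.

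The *Sprr2* family held the highest log2 fold changes, and 4 of its 8 tested genes were called higher. *Sprr2a2* (ENSMUSG00000068893, 92123106 to 92164031, plus strand), which supplied most of the *Sprr2* counts in every library, was at 184, 265, 242 and 256 CPM in the controls and at 1437, 2073, 2418 and 2316 CPM in the RoraEKO libraries. The lowest RoraEKO value was 5.41 times the highest control value (log2 fold change 3.12 ± 0.208 (SE), adjusted p = 0.000115, edgeR quasi-likelihood test). *Sprr2a1* was at 15, 11.8, 13.4 and 13.9 CPM and at 122, 79.9, 115 and 107 CPM (log2 fold change 2.97 with adjusted p = 2.34e-05, same test). *Sprr2a3* was at 9.81, 12.1, 10.6 and 13.1 CPM and at 56.4, 72.0, 86.1 and 75.4 CPM (log2 fold change 2.67 with adjusted p = 4.37e-05, same test). All 3 genes were called in each of the 8 fits that left out 1 library. *Sprr2a1*, *Sprr2a2* and *Sprr2a3* share 96.8, 94.0 and 61.1% of their 50-base words with other genes, and the annotated loci of *Sprr2a1* and *Sprr2a2* overlap. Their split is therefore uncertain, while their sum is less so: it was 0.0268 ± 0.0041% of the control counts and 0.221 ± 0.0536% of the RoraEKO counts (SD, n = 4 each), a ratio of 8.26.

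*Sprr2d* (ENSMUSG00000042212, 92246447 to 92248180, plus strand) had the highest log2 fold change of the 36 members. It was at 1.25, 1.09, 1.13 and 1.61 CPM in the control libraries and at 8.08, 86.7, 8.38 and 6.53 CPM in the RoraEKO libraries. All RoraEKO libraries lay above the controls, and replicate B4 was 10.4 times the next highest of them. The log2 fold change was 4.42 ± 0.884 (SE, adjusted p = 0.0228, edgeR quasi-likelihood test), and it was 2.58 (adjusted p = 0.00078, same test) without replicate B4.

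In the controls *Sprr2h* was above *Sprr2a2* per kilobase of annotated exon (82.6 and 75.7 CPM per kb) but below it in CPM (means of 62.1 and 237). The annotated exon lengths were 752 and 3132 bases, and the level of *Sprr2a2* is uncertain as its reads can be split with *Sprr2a1*. *Sprr2h* was at 88.8, 63.2, 65.6 and 30.9 CPM in the controls and at 101, 127, 86.3 and 45.6 CPM in the RoraEKO libraries. The groups overlapped (log2 fold change 0.53 ± 0.451 (SE), adjusted p = 0.50, edgeR quasi-likelihood test). The promoters of *Sprr2d* and *Sprr2h* printed above have the same AP-1 and TATA letters at nearly the same places. *Sprr2b*, *Sprr2f* and *Sprr2g* were tested without a call. The log2 fold changes of *Sprr2b*, *Sprr2f* and *Sprr2g* were 4.13, 2.13 and 3.60, and the adjusted p ran from 0.0719 to 0.241 by the edgeR test. Without RoraEKO replicate B4 the log2 fold changes were 1.85, 1.23 and 2.10, again with no call.

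For the low genes *Sprr2b*, *Sprr2e*, *Sprr2f*, *Sprr2g*, *Sprr2i* and *Sprr2j-ps* most of the RoraEKO counts came from replicate B4. *Sprr2b* was at 0.570, 0.218, 0.0473 and 0.262 CPM in the controls and at 0.326, 17, 2.17 and 0.549 CPM in the RoraEKO libraries. *Sprr2e*, which was not tested, held 1, 1, 1 and 3 counts in the controls and 3, 378, 30 and 17 counts in the RoraEKO libraries. *Sprr2j-ps* held 3 counts over all control libraries and 91 over all RoraEKO libraries, a ratio of 34.8 with a 95% counting interval from 11.5 to 172, and 57 of the 91 came from replicate B4. *Sprr2i* also stayed under the filter, at 94 counts in replicate B4 and at most 7 counts in a control library. *Sprr2k*, likewise untested, held 1, 1, 0 and 2 counts in the controls and 2, 10, 2 and 9 counts in the RoraEKO libraries, so that replicates B4 and C3 were alike.

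RoraEKO replicate B4 had the highest value of its group in 17 of the 36 tested members, replicate C2 in 14, and replicate A3 the lowest in 25. Beside this, markers of basal keratinocytes (*Krt5*, *Krt14*, *Itga6* and *Col17a1*) summed to 1134 CPM in replicate B4 and to 149 to 465 CPM in the other libraries. The neutrophil list (*S100a8*, *S100a9*, *Ly6g* and *Mpo*) summed to 70.9 CPM in replicate B4 and to 4.63 to 19.8 CPM in the other 7 libraries, of which *S100a9* gave 60.8 CPM, while *Ly6g* and *Mpo* were at 0 in replicate B4. *S100a8* was at 10.1 CPM in replicate B4, inside the 3.22 to 15.1 CPM of the other libraries. The part of these markers in the *Sprr* and *Lce3* values of replicate B4 was not tested.

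**Figure D4:**
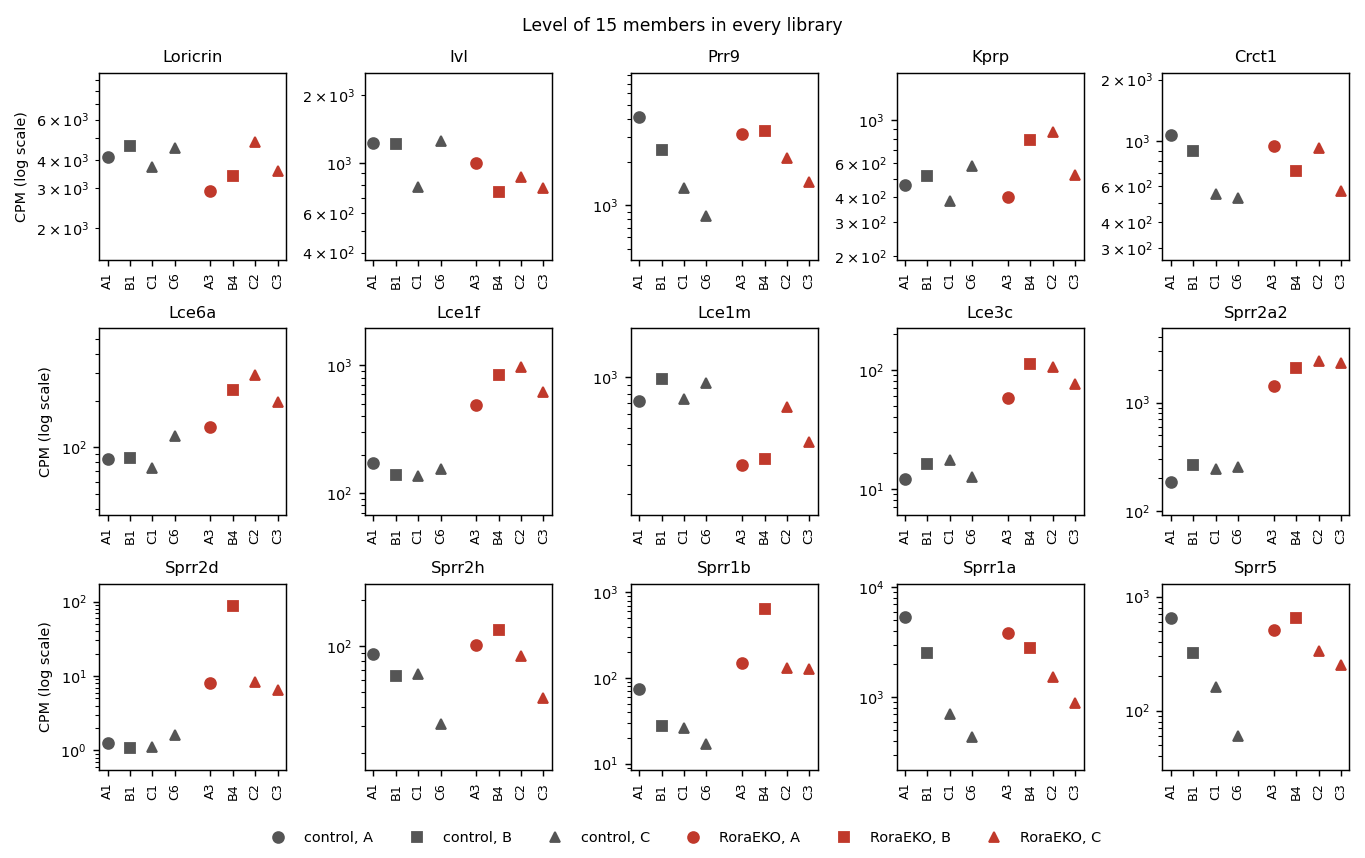
Level in CPM (vertical axes on a log scale, one panel for each of 15 members) in the 4 control libraries (grey) and the 4 RoraEKO libraries (red), with symbols for the title letter. *Sprr2a2*, *Lce3c* and *Lce1f* separate the groups, *Sprr2d* and *Sprr1b* stand apart in RoraEKO replicate B4, and *Sprr1a* and *Sprr5* step down from A1 to C6 in the controls.

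Of the *Sprr1* genes, which encode cross-bridging proteins, 1 was called higher. *Sprr1b* (ENSMUSG00000048455, 92344116 to 92346096, minus strand) was at 73.5, 27.6, 26.1 and 16.8 CPM in the control libraries and at 150.4, 633, 131 and 128 CPM in the RoraEKO libraries. The groups did not overlap, with replicate B4 highest (log2 fold change 2.85 ± 0.714 (SE), adjusted p = 0.0344, edgeR quasi-likelihood test), and the log2 fold change was 1.92 (adjusted p = 0.0474, same test) without replicate B4. *Sprr1a* (ENSMUSG00000050359, 92390424 to 92393208, minus strand) was at 5372, 2509, 699 and 434 CPM in the controls and at 3865, 2813, 1523 and 884 CPM in the RoraEKO libraries. The controls differed 12.4-fold among themselves and spanned all RoraEKO libraries (log2 fold change 0.01 ± 0.958 (SE), adjusted p = 0.999, same test). *Sprr1b* supplied 1.09 to 3.74% of the *Sprr1* counts in the controls and 3.75 to 18.4% in the RoraEKO libraries. Neither gene shares a 50-base word with another gene.

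None of the remaining *Sprr* genes was called. *Sprr4*, a low gene, was at 3.19, 1.36, 1.61 and 3 CPM in the controls and at 3.98, 2.75, 1.30 and 2.84 CPM in the RoraEKO libraries (log2 fold change 0.23 with adjusted p = 0.848, edgeR quasi-likelihood test). *Sprr5*, added here after its values were seen, was at 644, 318, 162 and 60.2 CPM and at 512, 648, 333 and 249 CPM (log2 fold change 0.56 with adjusted p = 0.722, same test). Both overlapped between the groups. *Sprr3*, known as a precursor of internal stratified epithelia, held 0 counts in the controls and 0, 3, 1 and 1 counts in the RoraEKO libraries, no more than the floor in any library.

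None of the 5 tested members outside the *Lce* and *Sprr* names was called, by edgeR or by DESeq2, and none had an unadjusted p under 0.05 with edgeR. *Prr9*, a proline-rich gene next to *Loricrin*, was at 4129, 2412, 1324 and 838 CPM in the controls and at 3124, 3279.9, 2117 and 1442 CPM in the RoraEKO libraries. Like *Sprr1a*, it was higher in letters A and B than in letter C in both groups (log2 fold change 0.19 ± 0.573 (SE), adjusted p = 0.904, edgeR quasi-likelihood test). *Kprp*, which encodes a keratinocyte proline-rich protein, was at 462, 514, 384 and 577 CPM and at 401, 784, 866 and 522 CPM, with overlap (log2 fold change 0.41 ± 0.287 (SE), adjusted p = 0.462, same test).

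*Crct1*, a cysteine-rich gene next to *Lce1m*, was at 1075, 890.1, 554 and 526 CPM in the controls and at 943, 711, 925 and 571 CPM in the RoraEKO libraries. The groups overlapped fully (log2 fold change 0.05 ± 0.307 (SE), adjusted p = 0.962, edgeR quasi-likelihood test). *Smcp*, which encodes a protein of the sperm mitochondrial capsule, held 1 to 9 counts in each library and was not tested. *Lelp1* held 0 counts in all 8 libraries.

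The letter of the sample title gave another view, since letters A and B each held 1 control and 1 RoraEKO library, all 4 with *Ddx3y* and almost no *Xist*, and letter C held 2 of each. The ratio of RoraEKO over control was above 1 in all 3 letters for 24 of the 36 tested members and above 1.5 in all 3 for 13. The same counts were not made over all tested genes, so they have no background beside them. The median ratio over the members was 1.25 in letter A, 4.46 in letter B and 2.70 in letter C. *Sprr2a2* gave ratios of 7.79, 7.81 and 9.5 and *Lce3c* ratios of 4.76, 6.89 and 6.01 in letters A, B and C, while *Sprr2d* gave 6.44, 79.4 and 5.43.

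The *Lce1* ratios also varied between letters. For the 7 genes from *Lce1a1* to *Lce1f* the ratios ran from 1.2 to 2.85 in letter A, from 2 to 6.08 in letter B and from 2.44 to 5.51 in letter C. For the 6 genes from *Lce1g* to *Lce1l* they ran from 0.945 to 1.75 in letter A, from 2.96 to 11.7 in letter B and from 2.46 to 4.43 in letter C. *Lce1m* had ratios of 0.413, 0.331 and 0.642, below 1 in every letter. Whether the ratios differ between letters was not tested, since letters A and B hold 1 library of each group.

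**Figure D5:**
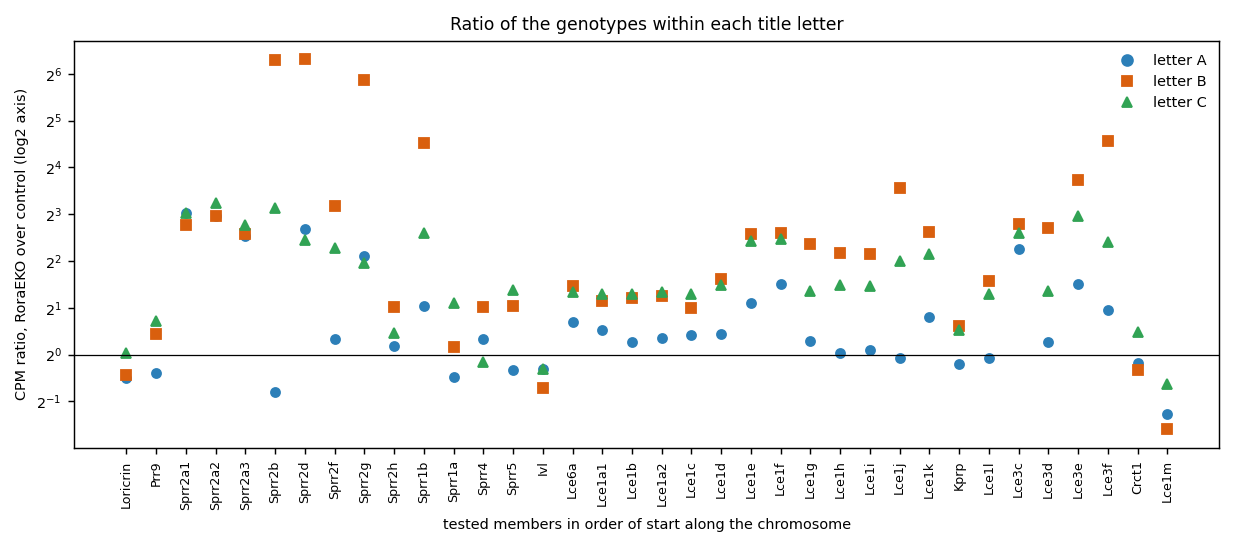
Ratio of CPM, RoraEKO over control (vertical axis on a log2 scale), within title letters A, B and C for the 36 tested members in their order along the chromosome; letter C compares the means of 2 libraries each. The *Sprr2a* genes and *Lce3c* lie above 1 in all letters, *Lce1m* lies below 1 in all, and *Lce1g* to *Lce1l* lie between 0.945 and 1.75 in letter A.

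The order of the libraries by title was looked at as well. In the controls 6 of the 36 tested members (16.7%) had falling values in the order A1, B1, C1 and C6, as did 11.1% of all tested genes. This order also sets C1 above C6, which share letter C. The 6 members were *Prr9*, *Sprr2f*, *Sprr1b*, *Sprr1a*, *Sprr5* and *Crct1*. For *Prr9*, *Sprr1b*, *Sprr1a* and *Sprr5* the RoraEKO libraries of letters A and B also lay above both of letter C. How many of all tested genes did so was not counted. Hair shaft keratins (*Krt31*, *Krt34*, *Krt81* and *Krt86*) summed to 5408, 2234, 2345 and 1654 CPM in the controls and 5012, 3963, 3738 and 2864 CPM in the RoraEKO libraries, highest in letter A of each group. In the controls, letter C also coincides with high *Xist*, so that letter and sex cannot be told apart there.

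Genes that work with the precursors were taken from a list of 17 envelope partners, of which 16 were tested. *Rptn*, which encodes the S100 fused-type protein repetin, and *Tgm5*, a transglutaminase, were called higher (log2 fold changes 4.54 and 0.83, adjusted p = 0.000281 and 0.0098, edgeR quasi-likelihood test). *Tgm5* was at 38.0, 34.6, 26.6 and 41.4 CPM in the controls and at 59.9, 68.9, 64.1 and 56.4 CPM in the RoraEKO libraries, without overlap. *Hrnr*, which encodes the filaggrin-like hornerin, was called lower (log2 fold change -1.90 with adjusted p = 0.0211, same test), and the call held in 5 of the 8 fits that left out 1 library. *Tgm1*, the membrane-bound transglutaminase of the granular layer, did not pass (log2 fold change 0.70 with adjusted p = 0.0578, same test), nor did *Casp14*, *Krt1* and *Krt10* (0.64 to 0.70). DESeq2 called these 4 higher as well. The list's median was 0.32.

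Of 12 transcription factors known to act on these genes, none was called higher by edgeR or DESeq2, and 1, *Nfe2l2*, had an unadjusted p under 0.05 in that direction. *Gata3*, a factor of epidermal differentiation, was called lower by both. It was at 179, 107, 119 and 99.7 CPM in the controls and at 81.4, 77.6, 61.7 and 76.3 CPM in the RoraEKO libraries, without overlap (log2 fold change -0.77 ± 0.209 (SE), adjusted p = 0.0493, edgeR quasi-likelihood test). The call held in 1 of the 8 fits that left out 1 library. The AP-1 genes *Fosl1*, *Junb* and *Jun* had log2 fold changes of 0.27, 0.30 and 0.34, and *Klf4*, a driver of barrier formation, was at 0.27, none of them past the test.

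Not all calls held when a library was left out. Of the 21 called, 8 were called in each fit that left out 1 library: *Sprr2a1*, *Sprr2a2*, *Sprr2a3*, *Lce1e*, *Lce1f*, *Lce1k*, *Lce3c* and *Lce3e*. They were 3 of the 4 called *Sprr2* genes, 2 of the 3 called *Lce3* genes and 3 of the 12 called *Lce1* genes. The same 8 genes were called when *Xist* entered the fit as a covariate, where 1.38% of all tested genes were called higher, and these genes without *Lce1k* were called without control replicates C1 and C6, where 1.08% were. The count was also 8 without control replicate B1 and 9 without control replicate C1, where 1.28% and 1.58% of all tested genes were called higher. The 13 other called genes, among them *Lce1a1*, *Lce6a*, *Sprr1b* and *Sprr2d*, thus did not pass once the control libraries with high *Xist* were left out, which left 2 controls. Their log2 fold changes in that fit were 1.11 for *Lce1a1*, 1.38 for *Lce6a*, 2.43 for *Sprr1b* and 4.61 for *Sprr2d*. The median was 1.5 over the 39 members tested there, against 1.38 over the 36 tested with all libraries, so the sets differ.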

How the data were processed

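RNA-seq libraries had been prepared from polyadenylated RNA with a TruSeq stranded kit. Per the labels and the study's methods, the authors used Skewer for trimming, STAR 2.5.3a for mapping to GRCm39 and RSEM for counting, and the deposited table holds RSEM expected counts with no normalization. The annotation release, and whether strand was used in counting, are not given in the sources used here. Symbols and coordinates came from GENCODE mouse release 39, which held 54749 of the 55416 identifiers.

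Since 2.99% of values were not whole, counts were rounded. The groups were compared after filterByExpr by quasi-likelihood tests in edgeR 4.0.16 (R 4.3.3, TMM factors, no covariate), with cutoffs of 0.05 for the adjusted p and 1.5 for the fold change. Standard errors (SE) come from mean log2 CPM per group, with a prior count of 2. Intervals and floors cover counting error only. DESeq2 1.42.0 was an alternative. Genes given by library were *Lce6a* and the members outside the *Lce* and *Sprr* names, and in *Lce1*, *Lce3*, *Sprr1* and *Sprr2* the gene with the highest mean CPM, those with the highest and lowest log2 fold change and those with the smallest p, and *Sprr4*. *Sprr3*, *Sprr5*, *Sprr2b*, *Sprr2e*, *Sprr2k*, *Lce3b*, *Lce3f*, *Tgm5* and *Gata3* were added after their values were seen. The members, lists and alternatives were chosen with earlier results of these data known. Words of 50 bases were compared between GENCODE transcripts on the same strand. The planned description of the proteins' composition was not run, as no protein table was used here. Plots were drawn with matplotlib 3.10.9.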

Additional observations from a re-analysis of the deposited data

Results flagged for a closer look

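Within groups of 4 libraries, 4 of 56 sets of values held a library far from the other 3 by Dixon's criterion, which sets its gap to the nearest other library against the group's range. Chance alone gives this in about 1 in 20 groups. RoraEKO replicate B4 was at 86.7 CPM for *Sprr2d* and at 633 CPM for *Sprr1b*, with gaps of 0.977 and 0.955 of the range. Control replicate C1 was at 783 CPM for *Ivl* and at 393 CPM for *Lce1a1*, below the other 3 controls by gaps of 0.926 and 0.832 of the range.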

How the results depend on the processing

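The number of members called higher was 21 and stayed within 1.5 times of that in all alternatives but those named here. It was 8 with *Xist* as a covariate and 7 without the control libraries of high *Xist*. The members' median log2 fold changes there were 1.35 over 36 and 1.5 over 39 members tested, against 1.38 over 36 with all libraries and no covariate. The number called higher ran from 8 to 24 when 1 library was left out (against 1.28% to 2.90% of all tested genes), with 8 without control replicate B1 and 9 without control replicate C1. A member was called lower, *Lce1m* in each case, with library size alone, with DESeq2 and with the title letter as a block (1 each, against 3.67%, 4.21% and 4.40% of all tested genes), and between 0 and 1 when 1 library was left out (without RoraEKO replicate C2, against 2.19%). The median log2 fold change of the members ran from 1.16 without RoraEKO replicate B4 (36 tested) to 1.88 with no filter (44 tested). Changes of sign concerned 4 members that were not called. For *Crct1* the log2 fold change was -0.03 with library size alone, -0.35 with the *Xist* covariate and -0.27 without the high-*Xist* controls, for *Prr9* it was -0.44 and -0.33 in the latter settings, for *Sprr5* -0.20 and -0.08, and for *Sprr1a* -0.05, -0.87 and -0.73 in the same 3 settings as *Crct1*. With 1 library left out they ran from -0.08 to 0.26 for *Crct1* (below 0 without control replicate C1 or C6), from -0.04 to 0.71 for *Prr9* (below 0 without C6), from 0.25 to 1.28 for *Sprr5* (highest without control replicate A1) and from -0.31 to 0.90 for *Sprr1a* (below 0 without C1, C6, A3 or B4). The log2 ratios of the subgroup shares moved by less than the spread between replicates in the alternatives run for them (other denominators and libraries left out), although that of *Sprr1*, 0.09, was -0.70 without the high-*Xist* controls and ran from -0.25 to 0.94 when 1 library was left out. The cause of these shifts was not tested. With DESeq2, *Sprr1b* and *Sprr2d* had no adjusted p. The labels give the groups no shared replicate numbers, and the title letter as a block gave 20 members called higher, against 3.19% of all tested genes. The 9 untested members held at most 9 counts in a control library, and *Lelp1* and *Sprr3* held 0 in all controls.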
